A study of Mus musculus with 6 samples.

Results

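The 32 genes described here act in S phase, the part of the cell cycle in which DNA is copied, and cover DNA synthesis at the fork, nucleotide supply, origin licensing, histone supply and repair. They were chosen by name, all 32 were found among the 55487 genes measured, and none was lost to the filter on low counts, since no library held fewer than 43 reads of any of them. RNA came from retinas of C57BL/6J mice at postnatal day (P) 7.5, collected at zeitgeber time 6 and sorted by fluorescence for cells positive for both tdTomato and GFP. The control group carried tdTomato FL/+ and Pdgf-icreER, and the Bmal1;CKO group carried Bmal1 FL/FL, tdTomato FL/+ and Pdgf-icreER, a tamoxifen-inducible Cre driven by an endothelial promoter whose transgene also supplies the GFP. Tamoxifen was given to both groups between P0.5 and P2.5, so Cre, tdTomato and tamoxifen are shared by them and the floxed Bmal1 alleles are what differs. There were 3 libraries in each group, here called control libraries 1 to 3 and Bmal1;CKO libraries 4 to 6. The comparison asks whether genes of DNA replication and repair differ in postnatal retinal endothelium when the clock gene Bmal1 is targeted.

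S phase begins when E2F transcription factors are freed to switch on replication genes. Helicases then unwind licensed origins, primase and polymerase alpha start each strand, a sliding clamp holds the main polymerases on DNA, and histones are supplied to wrap the new copies. At P7.5 the superficial vessel plexus of the mouse retina is still spreading, and its endothelial cells divide behind the advancing front. BMAL1 is a clock transcription factor that binds E-boxes together with CLOCK.

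The promoters of the genes are shown first, because E2F letters and E-box letters are the 2 sequence features that the biology above concerns. RefSeq promoter windows (GRCm38.p6, 250 bases before to 50 bases after the start) were matched to 24 of the 32 genes by symbol. Atad2, Dscc1, Exo1, Gins2, Gmnn, Rfc2, Tipin and Usp1 had no window. E2F letters, meaning TTTCCCGC, TTTGGCGC, TTTCGCGC or TTTGCCGC on either strand, stood in 8 of the 24 genes (33.3%), against 2.6% of the 27025 genes with a window. The 8 genes were Casp8ap2, Clspn, Dtl, Hells, Pola1, Pold3, Ubr7 and Uhrf1. The E-box letters CACGTG stood in 2 of the 24 (8.33%), Fen1 and Tyms, against 8.09% of all genes. The letters CCAAT, searched on both strands, stood in 17 of the 24 (70.8%), against 41.1% of all genes. The lines below give the bases of 6 windows that lie in no annotated exon, with E2F or E-box letters in capitals. Dtl and Pola1 hold E2F letters, Tyms holds the E-box letters, and Brip1, Prim1 and Ung hold neither and are shown because their libraries separated by group.
Dtl, chr1:191575545-191575635, minus strand: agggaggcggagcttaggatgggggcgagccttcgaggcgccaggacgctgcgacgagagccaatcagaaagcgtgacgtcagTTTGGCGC
Pola1, chrX:93632156-93632405, minus strand: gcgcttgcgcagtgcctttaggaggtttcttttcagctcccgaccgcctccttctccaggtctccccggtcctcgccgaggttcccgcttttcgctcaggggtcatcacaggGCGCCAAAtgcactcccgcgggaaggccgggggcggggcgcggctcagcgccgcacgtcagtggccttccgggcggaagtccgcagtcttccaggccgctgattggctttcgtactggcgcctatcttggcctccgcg
Tyms, chr5:30073626-30073875, minus strand: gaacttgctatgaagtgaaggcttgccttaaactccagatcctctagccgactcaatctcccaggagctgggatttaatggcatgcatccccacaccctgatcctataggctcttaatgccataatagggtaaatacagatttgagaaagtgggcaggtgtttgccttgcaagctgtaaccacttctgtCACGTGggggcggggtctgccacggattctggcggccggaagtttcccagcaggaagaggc
Brip1, chr11:86201194-86201369, minus strand: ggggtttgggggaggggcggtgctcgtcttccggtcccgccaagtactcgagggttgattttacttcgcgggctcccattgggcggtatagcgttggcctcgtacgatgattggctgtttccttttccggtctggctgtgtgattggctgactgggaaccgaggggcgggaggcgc
Prim1, chr10:128014965-128015167, plus strand: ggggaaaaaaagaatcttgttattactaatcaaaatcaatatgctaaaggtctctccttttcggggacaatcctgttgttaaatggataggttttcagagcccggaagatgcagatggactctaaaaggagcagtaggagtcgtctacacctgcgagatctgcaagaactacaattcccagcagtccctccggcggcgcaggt
Ung, chr5:114130185-114130385, plus strand: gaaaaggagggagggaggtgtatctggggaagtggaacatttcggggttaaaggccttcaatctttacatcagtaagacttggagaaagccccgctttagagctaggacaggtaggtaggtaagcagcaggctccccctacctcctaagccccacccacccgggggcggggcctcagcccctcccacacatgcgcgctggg

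In Dtl the E2F letters began 8 bases before the start, and in Pola1 they lay 138 bases before it on the opposite strand. The E-box letters of Tyms began 61 bases before its start, and those of Fen1 18 bases before one of its starts. The remaining E2F matches began 62 bases before the start in Hells, 176 in Casp8ap2 and 185 in Uhrf1, and they stood at positions 4, 17 and 21 past the start in Ubr7, Pold3 and Clspn. A match is a run of letters in a window and was not tested for binding.

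The reads and the labelled cell type were checked before the genes were compared. Between 71145068 and 104017800 reads fell on genes per library. Bmal1 itself, listed as Arntl, had 1700, 3489 and 2928 normalized reads in control libraries 1 to 3 and 1779, 2747 and 2415 in Bmal1;CKO libraries 4 to 6, and the groups overlapped. A count over the whole gene does not isolate the floxed part, so it does not check the deletion. By droplet digital PCR on sorted endothelial cells, the paper reports significantly less Bmal1 transcript in the mutant than in the control. In the present counts every direction below rests on the labels of the libraries. The endothelial markers Cldn5, Pecam1 and Kdr were present in all libraries, but Slco1a4, a brain endothelial transporter, had at most 103 normalized reads and was at 0 in control library 3. Microglia and macrophage markers were higher still. Summed per kilobase of exon, the 9 microglia markers exceeded the 14 endothelial markers 8.81 to 31.1 times, and Apoe, a lipid carrier made by macrophages and glia, alone took 5.34% to 15.5% of the reads on genes. The 32 genes therefore cannot be assigned to endothelial cells from these libraries, and in bulk RNA fewer dividing cells cannot be told apart from less RNA per cell. Control library 1 stood apart: it had the highest level of 10 of 14 endothelial markers, and the retinal progenitor genes Sox2, Fgf15 and Sfrp2 were at 0 there and in no other library.

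Levels were compared between genes as normalized reads per kilobase of exon, averaged over the 6 libraries. They ran from 17.8 for Dtl to 2532 for Tipin. In total reads, 18 of the 32 genes lay above the median of all genes tested (756 normalized reads). The most abundant genes per length were Tipin, Rpa2 (1593), Rfc2 (1296), Gmnn (1292) and Rrm2 (995), which span fork protection, DNA binding, clamp loading, licensing control and nucleotide supply. The least abundant were Dtl, Pola1 (21.1), Brip1 (27.0), Hells (27.9) and Blm (30.7). These ranks use reads on the genes themselves and leave out those on near-identical pseudogenes, described below. The pseudogene Pcna-ps2 had a mean of 16632 normalized reads against 1484 on Pcna, and with them Pcna would stand above Tipin.

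**Figure D1:**
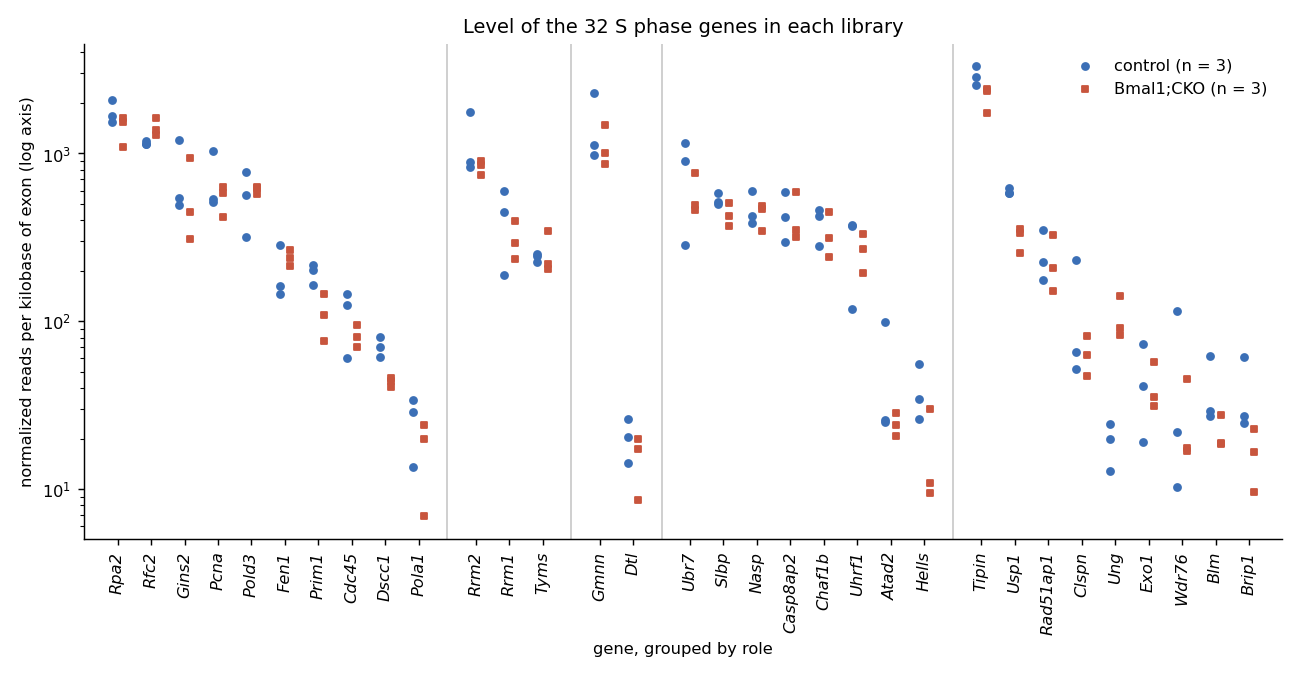
Normalized reads per kilobase of exon (log axis) of the 32 S phase genes, grouped by role in the order fork, nucleotides, licensing, chromatin, and repair and checkpoint. Each blue point is a control library and each red square a Bmal1;CKO library (3 of each), and the genes span from 17.8 (Dtl) to 2532 (Tipin) on average. Reads on pseudogenes are left out.

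As a whole the genes leaned lower in the libraries labelled Bmal1;CKO. The log2 fold change, Bmal1;CKO over control on log2(normalized read + 1), was below 0 for 25 of the 32 genes (78.1%) and above 0 for 7, while it was below 0 for 43.4% of the 20459 genes tested. Its median was -0.32 over the 32 genes and 0.11 over all genes tested. TMM scaling with the same model left both medians close, at -0.32 and 0.10. The edgeR model on the recovered reads put 27 of the 32 genes (84.4%) and 52.1% of all genes below 0, with medians of -0.42 and -0.03. Relative to all genes the 32 genes thus stood at -0.42 in limma-trend and at -0.39 in edgeR with TMM. Without control library 1 they stood at -0.35 in limma-trend, with 71.9% of the 32 genes and 10102 of 20224 genes tested below 0. A stricter filter, under which no library may hold fewer than 10 reads of a gene, kept 15046 genes, and 50.5% of these were below 0. All 32 genes passed it and stood at -0.31 relative to that background in limma-trend.

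No single gene of the 32 passed a false discovery rate of 0.05 in limma-trend, and neither did any gene tested (0%). At an unadjusted p under 0.05, Usp1 was lower and Ung was higher, against 1.75% of all genes lower and 3.17% higher. Every control library lay above every Bmal1;CKO library for 5 genes, Prim1, Dscc1, Tipin, Usp1 and Brip1, against 4.54% of all genes. The reverse held for 2 genes, Rfc2 and Ung, against 6.62% of all genes. In DESeq2, 0.327% of all genes passed the same false discovery rate and Ung was the only one of the 32 to do so, with an adjusted p of 0.00385. Without the variance trend limma called 0.298% of all genes and none of the 32. With 3 libraries against 3 an exact permutation test cannot go below p = 0.1, so no single gene can pass 0.05 in it.

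The spread between libraries was as large as most of these differences. In 22 of the 32 genes the log2 fold change was smaller than 0.5 in size, and in 24 the relative difference between the group means was smaller than the larger of both groups' coefficients of variation. Only 2 genes, Usp1 and Ung, differed by more than 2 standard errors. Of the 9 genes with a log2 fold change below -0.5, 8 were among the 16 least abundant per length, and 7 had their highest value in control library 1.

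**Figure D2:**
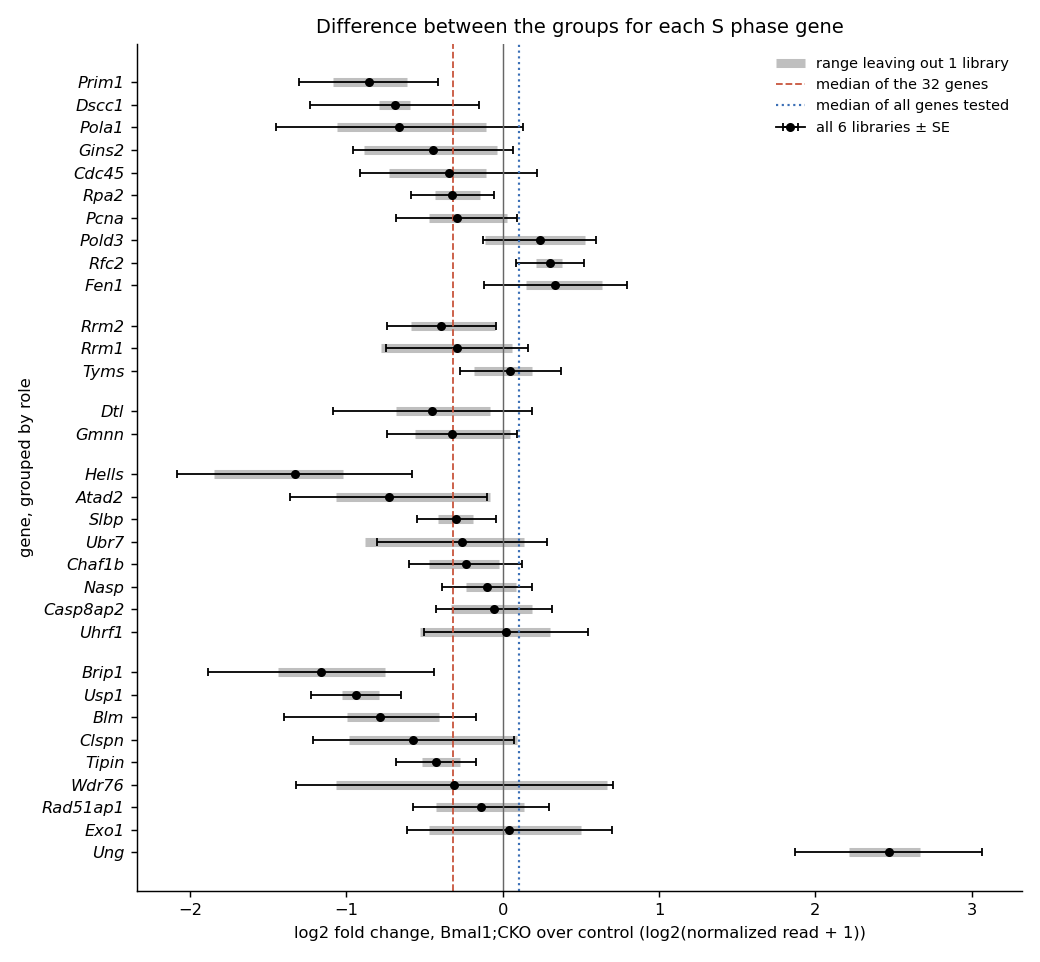
Log2 fold change of each S phase gene, Bmal1;CKO over control, with its standard error from limma-trend (black) and the range of the value when each of the 6 libraries was left out (grey). Most genes sit between -0.5 and 0.5, the median of the 32 genes (dashed) is -0.32 against 0.11 for all genes tested (dotted), and Ung stands alone on the right at 2.47.

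Genes of DNA synthesis at the fork were lower in 7 of 10 cases, with a median log2 fold change of -0.33. Prim1, the catalytic subunit of primase (ENSMUSG00000025395, GRCm38 chr10:128015168-128030037), had 786, 843 and 634 normalized reads in control and 294, 424 and 566 in Bmal1;CKO. Its groups did not overlap, with means of 754 ± 108 and 428 ± 136 (SD, n = 3). It differed by -0.86 ± 0.45 (SE) on the log2 scale, and the adjusted p in limma-trend was 0.883.

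Pola1, the catalytic subunit of polymerase alpha, which extends the primers that primase lays down, was the least abundant gene of this role. It had 298, 119 and 254 normalized reads in control and 60.5, 212 and 175 in Bmal1;CKO. The groups overlapped, and the log2 fold change of -0.66 ± 0.79 (SE) was smaller than its error.

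Dscc1, part of an alternative clamp loader that works in sister chromatid cohesion (ENSMUSG00000022422, chr15:55076099-55090491), had 356, 312 and 272 normalized reads in control and 204, 194 and 180 in Bmal1;CKO. All 3 control values were higher, and the libraries within each group lay close together. On the log2 scale the difference was -0.69 ± 0.54 (SE), with an adjusted p of 0.883 in limma-trend.

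Rfc2, a subunit of the main clamp loader (ENSMUSG00000023104, chr5:134581366-134601805), went the other way. It had 7213, 7193 and 7465 normalized reads in control and 10267, 8730 and 8159 in Bmal1;CKO. All Bmal1;CKO libraries were higher, and the log2 fold change was 0.31 ± 0.22 (SE), with an adjusted p of 0.883 in limma-trend. Over 15.1% of its exon length Rfc2 overlaps Lat2 on the opposite strand, which had a mean of 546 normalized reads, and the use of strand in counting is not given in the sources used here.

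Rpa2, which coats single-stranded DNA, was the most abundant fork gene per length, with pseudogene reads left out. It had 6199, 5015 and 4631 normalized reads in control against 4880, 4619 and 3270 in Bmal1;CKO. The highest control library and the lowest Bmal1;CKO library set most of its log2 fold change of -0.32 ± 0.27 (SE), and the groups overlapped. Pcna, the sliding clamp, had 2471, 1280 and 1240 normalized reads in control and 1390, 1517 and 1007 in Bmal1;CKO. Control library 1 stood well above the other 5 libraries, and without it the log2 fold change of Pcna went from -0.30 to 0.03.

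Cdc45 and Gins2, both parts of the replicative helicase, had log2 fold changes of -0.35 and -0.44 with overlapping groups. Gins2 (mean 2686 normalized reads) shares 67.3% of its exon length with Gse1 (mean 2249) on the opposite strand. Cdc45 (mean 337) shares 5.96% with Ufd1 (mean 2835), also on the opposite strand. As the use of strand in counting is not given, the values of both genes are uncertain, those of Gins2 most. Pold3, an accessory subunit of polymerase delta, and Fen1, the nuclease that trims Okazaki fragments, were above 0 at 0.24 and 0.34, and both overlapped between the groups. An antisense gene with a mean of 8.58 normalized reads covers 78.8% of Fen1.

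Of the 3 nucleotide supply genes, Rrm2 and Rrm1, the small and large subunits of ribonucleotide reductase, were lower and Tyms, thymidylate synthase, was level. Rrm2 had 2308, 2452 and 4864 normalized reads in control and 2513, 2052 and 2354 in Bmal1;CKO. Control library 3 was high and the other 5 libraries were alike, and the log2 fold change moved from -0.39 ± 0.35 (SE) to -0.05 without that library. Rrm1 was lowest in control library 1 (2065) and highest in control library 3 (6613), with Bmal1;CKO values of 3222, 2588 and 4388 between them. Tyms had 1499, 1367 and 1538 normalized reads in control and 2089, 1333 and 1249 in Bmal1;CKO, and differed by 0.05 ± 0.32 (SE) on the log2 scale.

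The 2 genes that control origin licensing were both lower in mean. Gmnn, which binds and inhibits the licensing factor CDT1, had 3352, 1648 and 1442 normalized reads in control and 2179, 1478 and 1260 in Bmal1;CKO. Control library 1 was highest, and without it the log2 fold change of Gmnn went from -0.32 ± 0.41 (SE) to 0.05. Dtl, which directs CDT1 to degradation, had 196, 280 and 360 normalized reads in control and 273, 118 and 239 in Bmal1;CKO. Its groups overlapped, and its log2 fold change was -0.45 ± 0.63 (SE).

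Of the 8 genes of histone supply and chromatin copying 7 were below 0, with a median of -0.25, and no gene of this role had groups that stayed apart. Hells, a chromatin remodeller needed for DNA methylation, had the lowest log2 fold change of all 32 genes at -1.33 ± 0.75 (SE). It had 402, 189 and 249 normalized reads in control and 78.8, 68.2 and 218 in Bmal1;CKO. Libraries 4 and 5 were low, while library 6 lay within the control range, and the adjusted p in limma-trend was 0.883.

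Atad2, a bromodomain ATPase, depended on one library: it had 1582, 405 and 415 normalized reads in control and 331, 388 and 453 in Bmal1;CKO. Without control library 1 its log2 fold change went from -0.73 to -0.08. Slbp, which binds the stem-loop of histone mRNAs, stood at -0.30 ± 0.25 (SE). Ubr7, a PHD-finger ubiquitin ligase, was the most abundant gene of this role per length (676), with pseudogene reads left out. It had 926, 2951 and 3765 normalized reads in control and 1601, 1502 and 2481 in Bmal1;CKO. Control library 1 was the lowest of the 6 for Ubr7, and without it the log2 fold change went from -0.26 to -0.88.

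The other genes of this role lay close to 0. Chaf1b, a subunit of the histone-depositing complex CAF-1, stood at -0.24. Nasp, a chaperone of histones H3 and H4, stood at -0.10 and Casp8ap2, needed to process histone mRNAs, at -0.06. Uhrf1, which recruits the maintenance DNA methyltransferase, stood at 0.02 in limma-trend and below 0 in edgeR, DESeq2 and limma-voom.

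The repair and fork checkpoint genes held both genes with an unadjusted p under 0.05 and 4 of the 7 genes whose groups did not overlap. Usp1, which removes ubiquitin from PCNA and from the Fanconi anaemia protein FANCD2 (ENSMUSG00000028560, chr4:98923810-98935543), had 2173, 2332 and 2179 normalized reads in control and 1321, 949 and 1251 in Bmal1;CKO. The 3 control libraries were nearly equal and all lay above the Bmal1;CKO libraries, with means of 2228 ± 90.1 and 1173 ± 197 (SD, n = 3). The log2 fold change was -0.94 ± 0.29 (SE), with an adjusted p of 0.883 in limma-trend and 0.013 before adjustment. It stayed between -1.03 and -0.79 whichever library was left out. The adjusted p of Usp1 ran from 0.294 to 1 over the other analyses.

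Ung, the glycosylase that cuts uracil out of DNA (ENSMUSG00000029591, chr5:114130386-114139323), had 70.1, 109 and 133 normalized reads in control and 775, 500.1 and 455 in Bmal1;CKO. Each Bmal1;CKO library was above all control libraries, and the means were 104 ± 31.6 and 577 ± 173 (SD, n = 3). The log2 fold change was 2.47 ± 0.60 (SE), the largest in size of the 32 genes, with an adjusted p of 0.856 in limma-trend and 0.004 before adjustment. Leaving out a library gave 2.21 to 2.67. The adjusted p of Ung ran from 0.00385 in DESeq2 to 1 over the other analyses, so its call depends on the test.

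Tipin, a fork protection factor (ENSMUSG00000032397, chr9:64281581-64305424), was the most abundant gene of all 32 per length, with pseudogene reads left out. It had 4763, 6167 and 5312 normalized reads in control and 4519, 4384 and 3244 in Bmal1;CKO. The groups did not overlap, but the lowest control library and the highest Bmal1;CKO library were close. Its log2 fold change was -0.43 ± 0.25 (SE), with an adjusted p of 0.883 in limma-trend.

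Brip1, a helicase that works with BRCA1 (ENSMUSG00000034329, chr11:86058138-86201193), had 456, 203 and 185 normalized reads in control and 71.7, 124 and 169 in Bmal1;CKO. The groups did not overlap, and control library 1 was far above the other libraries. Its log2 fold change was -1.16 ± 0.72 (SE), with an adjusted p of 0.883 in limma-trend, and it went to -0.75 without control library 1.

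Blm, a RecQ helicase, stood at -0.79 ± 0.61 (SE) with overlapping groups. Clspn, the adaptor that passes the fork signal to the checkpoint kinase CHK1, had 1665 normalized reads in control library 1 and between 341 and 585 in the other 5, and without that library its log2 fold change went from -0.57 to 0.09. Wdr76 showed the same shape, with 723 normalized reads in control library 1 and at most 285 elsewhere, and went from -0.31 to 0.66. Rad51ap1, which acts in homologous recombination, stood at -0.14, and Exo1, a nuclease of mismatch repair and end resection, at 0.04 in limma-trend and below 0 in edgeR, DESeq2 and limma-voom, with groups that overlapped in both.

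**Figure D3:**
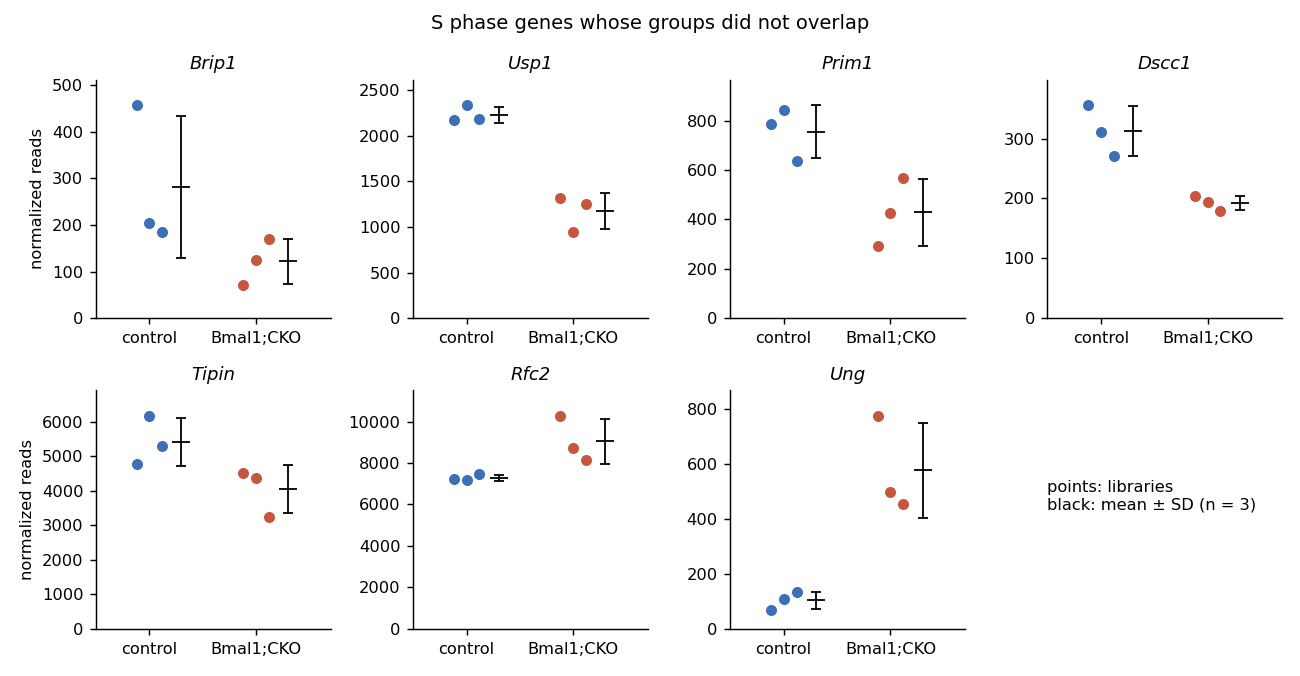
Normalized reads in each library for the 7 S phase genes whose control (blue) and Bmal1;CKO (red) libraries did not overlap, with the mean and SD of 3 libraries in black. Brip1, Usp1, Prim1, Dscc1 and Tipin are lower and Rfc2 and Ung higher in Bmal1;CKO, and the gap is widest for Ung, whose group means are 104 and 577.

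Library by library, 28 of the 32 genes (87.5%) had their highest value in a control library, against 62.5% of all genes tested. Control library 1 alone held 13 of these highest values, library 2 held 7 and library 3 held 8, while Bmal1;CKO libraries 4, 5 and 6 held 3, 1 and 0. Over all genes tested the highest value lay in libraries 1 to 6 for 26.9%, 18.8%, 16.8%, 15.9%, 11.4% and 10.2%. The lowest value lay in a Bmal1;CKO library for 21 genes (65.6%), against 31.5% of all genes tested. Control library 1 also held the lowest value of 8 genes (25%), among them Ung, Rrm1, Ubr7 and Uhrf1, against 36.4% of all genes tested. It was highest for 40.6% of the 32 genes, against 26.9% of all genes tested. The summed normalized reads of the 32 genes were 60925, 58403 and 63987 in control and 57832, 51473 and 48097 in Bmal1;CKO. These sums did not overlap, though Bmal1;CKO library 4 came close to control library 2, and abundant genes such as Rfc2 and Rpa2 weigh most in them. Reads on near-identical pseudogenes, described below, are left out of the sums. Pcna-ps2, a pseudogene of Pcna, had 20592 normalized reads in library 4 and at most 18083 in a control library. With its reads added the sums overlap, so the separation holds only for reads on the genes themselves. Without control library 1 the median log2 fold change of the 32 genes was -0.35, and 9 genes were above 0.

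The SD of the log2 values within a group had a median of 0.55 in control and 0.39 in Bmal1;CKO over the 32 genes, against 0.76 and 0.42 over all genes tested. The control group had the larger SD in 19 of the 32 genes (59.4%) and in 75.0% of all genes. From the lowest to the highest library a gene varied 1.43-fold at the least (Rfc2) and 11.1-fold at the most (Wdr76), with a median of 2.56.

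Several of these genes have near-identical copies elsewhere in the genome, on which reads were counted as well. By a rule of at least 90% identity over at least 400 bases, set after the data were seen, 12 annotated pseudogenes of 10 of the 32 genes were found. For 4 genes the pseudogene had more reads than the gene: Pcna, Tyms, Uhrf1 and Slbp. Reads of such pairs may have been divided between them in counting, so the values of all 10 genes are uncertain, and those of these 4 most.

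Pcna-ps2, 99.2% identical to Pcna over 781 bases, had a mean of 16632 normalized reads against 1484 for Pcna, or 91.8% of the sum. Added together, Pcna and Pcna-ps2 had 19338, 19363 and 19279 normalized reads in control and 21982, 15280 and 13452 in Bmal1;CKO. The 3 control sums were nearly equal, although Pcna alone differed in control library 1, and the groups overlapped.

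Slbp alone had 3030, 3529 and 3122 normalized reads in control and 2260, 3082 and 2587 in Bmal1;CKO, which overlap. Summed with its pseudogene Gm8396, which held 61.2% of the sum, it had 7653, 9180 and 8756 in control and 5986, 7200 and 6652 in Bmal1;CKO. The summed groups did not overlap. Tyms changed sign, from 0.05 alone to -0.42 with Tyms-ps, which held 82.1% of the sum. Usp1 with Gm5841 had 2896, 3897 and 4142 in control and 2211, 1873 and 2391 in Bmal1;CKO, and stayed lower in every Bmal1;CKO library. Its control sums were less alike than the control values of Usp1 alone. Uhrf1 with Gm5648 overlapped between the groups. Over the 32 genes the median log2 fold change with pseudogenes added was -0.33, and 6 genes were above 0.

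**Figure D4:**
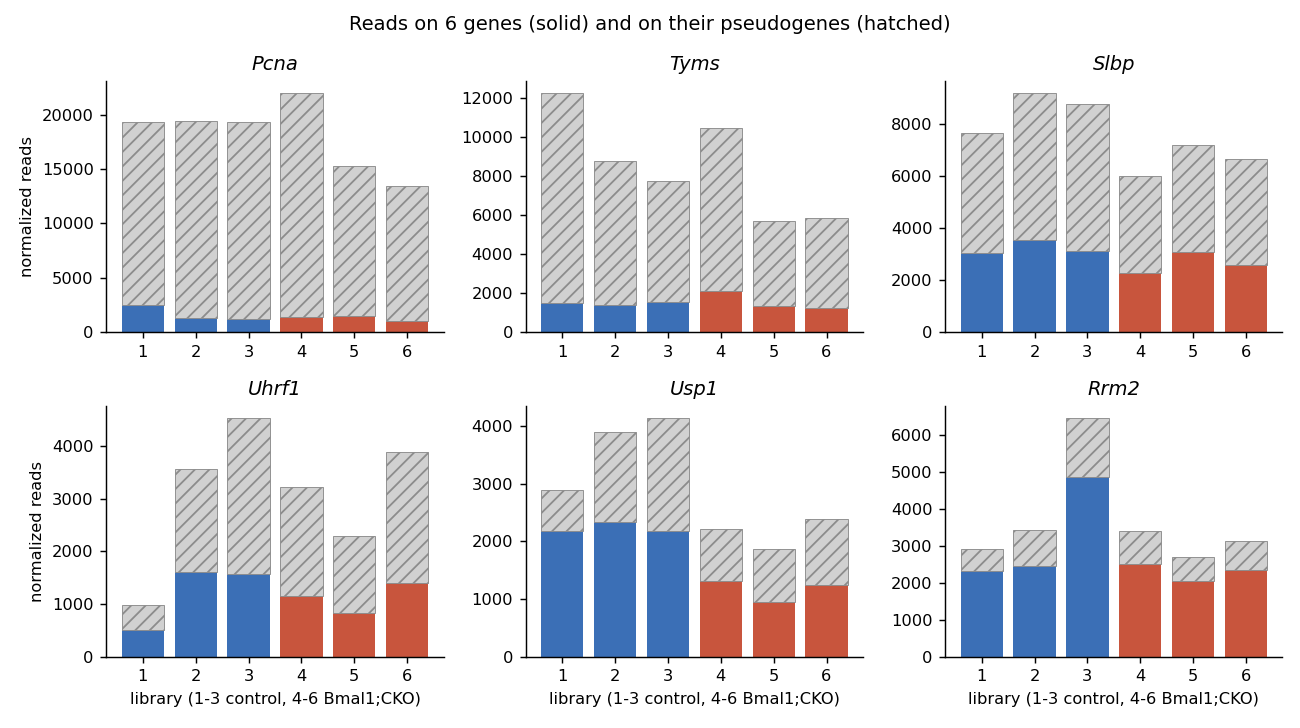
Normalized reads on 6 S phase genes (solid; blue control libraries 1 to 3, red Bmal1;CKO libraries 4 to 6) and, stacked on top, on their pseudogenes (hatched), for each library. The pseudogenes take most of the reads of Pcna (91.8%), Tyms (82.1%), Uhrf1 (61.8%) and Slbp (61.2%) and a smaller share for Usp1 (41.4%) and Rrm2.

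Of a list of 54 other replication genes 29 (53.7%) were below 0 and 25 above, beside 43.4% of all genes below 0. The median log2 fold change of the list was -0.04 in limma-trend and -0.11 in edgeR with TMM. Under the stricter filter 28 of 50 (56%) were below 0, beside 50.5% of all genes that passed it. The difference of this list from the 32 genes was not tested. None passed a false discovery rate of 0.05 in limma-trend, and at an unadjusted p under 0.05 Dck and Topbp1 were lower. Within it, 11 of 14 genes of origin recognition and licensing and 5 of 5 further nucleotide supply genes were below 0, while 15 of 24 fork and polymerase genes, 2 of 3 chromatin copying genes and 5 of 8 recombination and checkpoint genes were above. Groups did not overlap for 6 of the 54, Orc2, Orc5, Prim2, Rfc5, Topbp1 and Dck, and all 6 were lower in Bmal1;CKO, where 4.54% of all genes were separate and lower and 6.62% separate and higher. Prim2 is the partner subunit of Prim1, and had 1090, 947 and 1204 normalized reads in control and 747, 867 and 686 in Bmal1;CKO.

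Dck, which phosphorylates deoxycytidine for the salvage of nucleotides, had 824, 953 and 1232 normalized reads in control and 108, 322 and 507 in Bmal1;CKO. Every control library was higher, and the log2 fold change was -1.92 ± 0.64 (SE), with an adjusted p of 0.883 in limma-trend. Topbp1, an activator of the checkpoint kinase ATR, had 1225, 1220 and 1265 normalized reads in control and 553, 954 and 498 in Bmal1;CKO. Its control libraries were nearly equal, as for Usp1, and the log2 fold change was -0.95 ± 0.39 (SE), with an adjusted p of 0.883 in limma-trend.

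Genes of G2 and mitosis, the phases that follow S, were below 0 in 28 of 36 cases (77.8%, against 43.4% of all genes). Their median was -0.18, and 0 of them passed a false discovery rate of 0.05 in limma-trend. Under the stricter filter 28 of 35 (80%) were below 0, against 50.5% of all genes that passed it. Without Bmal1;CKO library 5, 18 of the 36 were below 0, with a median of -0.01. Ccnb1, the mitotic cyclin, was the one with an unadjusted p under 0.05, with 1521, 888 and 839 normalized reads in control and 553, 407 and 507 in Bmal1;CKO. Its log2 fold change was -1.10 ± 0.42 (SE), with an adjusted p of 0.883 in limma-trend. Groups did not overlap for 6 of the 36, and all 6, Top2a, Ccnb1, Bub1, Kif23, Nusap1 and Ndc80, were lower, beside the same 4.54% and 6.62% of all genes. Top2a, the topoisomerase that untangles copied chromosomes, had 4394, 1485 and 1409 normalized reads in control and 1291, 1036 and 1147 in Bmal1;CKO, with most of the difference in control library 1. Mki67, the proliferation marker Ki-67, had 6095, 2750 and 3686 in control and 4183, 4127 and 4622 in Bmal1;CKO, and the groups overlapped around a log2 fold change of 0.12 ± 0.33 (SE).

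Markers of several cell types moved between the same libraries. Of the 14 endothelial markers 13 were below 0, with a median log2 fold change of -0.50 (-0.21 without control library 1, -0.16 without Bmal1;CKO library 5) and overlapping groups, and their sums were 434447, 248639 and 220452 normalized reads in control and 236409, 135083 and 284173 in Bmal1;CKO. The summed S phase genes over the summed endothelial markers gave 0.14, 0.23 and 0.29 in control and 0.24, 0.38 and 0.17 in Bmal1;CKO, and this ratio overlapped between the groups. Microglia markers were above 0 in 7 of 9 cases, with a median of 0.40 (0.74 without control library 1, 0.07 without control library 2, 0.27 in edgeR with TMM). The microglia sums were 1331970 to 4028790 in control and 1943660 to 3914820 in Bmal1;CKO. Retinal progenitor markers, which belong to dividing cells, were above 0 in 6 of 7 cases, with a median of 2.11 that fell to 0.80 without control library 1, where 3 of them are at 0, and to 0.93 in edgeR with TMM. Their sums of 13872, 30569 and 37562 in control lay under the 45807, 38096 and 39286 in Bmal1;CKO. Müller glia markers were above 0 in 6 of the 6 tested (median 0.49), astrocyte markers in 2 of 4 (0.34) and erythroid markers in 1 of 5 (-1.0). Without control library 1 these medians were 0.52, -0.75 and -2.02, and in edgeR with TMM 0.25, -0.39 and -1.79. Pericyte markers were above 0 in 5 of 7 cases with a median of 1.16, but below 0 in 6 of 7 without control library 1 (-1.61) and in edgeR with TMM (-1.60), and the group mean of normalized reads was lower in Bmal1;CKO for 6 of 7. Of 7 rod markers 6 were below 0, with a median of -0.21 (-0.10 in edgeR with TMM). Without Bmal1;CKO library 4, 2 of the 7 were below 0, with a median of 0.12, and 0 had an unadjusted p under 0.05 in limma-trend. With all libraries Cnga1 and Rcvrn were lower at an unadjusted p under 0.05 in limma-trend, and the groups of Cnga1 did not overlap. The part of these cells in the differences of the S phase genes was not tested.

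**Figure D5:**
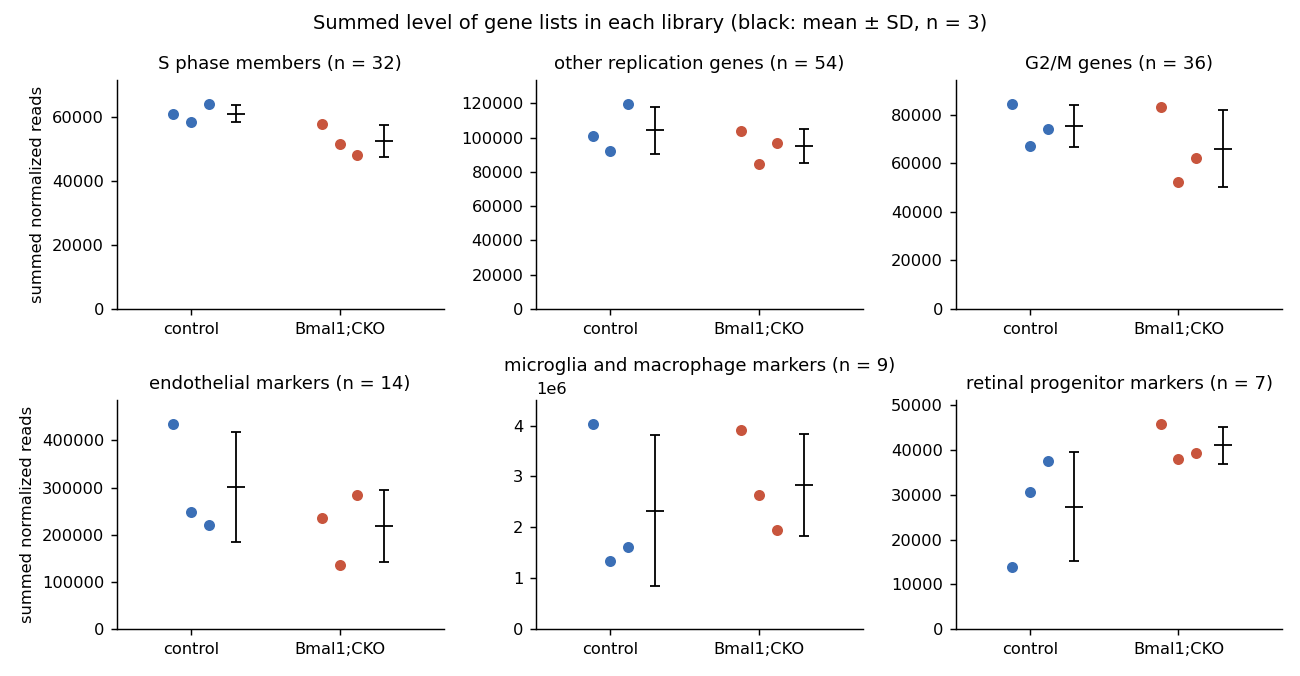
Summed normalized reads of 6 gene lists in each control (blue) and Bmal1;CKO (red) library, with the mean and SD of 3 libraries in black and a separate axis for each list. Counted without pseudogenes, the S phase sums are higher in all control libraries (58403 to 63987 reads, against 48097 to 57832). The progenitor sums are lower there, and the other 4 lists overlap between the groups.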

How the data were processed

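RNA was measured in double-positive (GFP and tdTomato) cells sorted from P7.5 retinas, with 3 control and 3 Bmal1;CKO libraries made after full-length cDNA amplification of polyadenylated RNA. Per the paper's methods the authors used FastQC, Trimmomatic, Bowtie to mm10 (Ensembl GRCm38), featureCounts and DESeq2; versions and the use of strand are not given in the sources used here. The authors deposited a signal for each gene and library, the read count divided by a DESeq2 size factor. They also deposited their own comparison columns, which were not used. Size factors recovered from the values ran from 0.711 to 1.40 and gave whole reads (within 0.01) for 100% of values. Column numbers disagree with those of the labels, so each column was used as a replicate of its genotype. P-values measure only the spread between these libraries, part of which may be technical.

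The 20459 genes that reached 10 reads in 3 or more libraries were tested by limma-trend on log2(normalized read + 1) in R 4.3.3 with limma 3.58.1, with Benjamini-Hochberg adjustment over all of them. The pseudocount makes the fold change of low genes smaller. Alternatives were edgeR 4.0.16, DESeq2 1.42.0, limma-voom, limma without trend, pseudocounts of 0.5 and 10, other filters and leaving out each library. Tests were tried on simulated data first. Coordinates and exon lengths were from GENCODE M21 (GRCm38), which held 55227 of the 55487 listed genes. The 32 genes, the comparison lists and the marker lists were chosen with earlier results of these data known. Values in every library were given for genes with separate groups, an unadjusted p under 0.05, or the highest or lowest level per length in their role, and for Pcna, Rrm2 and Gmnn. The other genes shown in full were chosen after their values were seen. One rod marker is not reported here.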

Additional observations from a re-analysis of the deposited data

How the results depend on the processing

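The median log2 fold change of the 32 genes was below 0 under every alternative run, from -0.42 to -0.23, and 5 to 10 genes were above 0. The count at a false discovery rate of 0.05 was 0 except in DESeq2, where it was 1 (Ung). Leaving out 1 library at a time, the median ran from -0.39 to -0.23, the count at an unadjusted p under 0.05 from 1 (without Bmal1;CKO library 5, where Usp1 was lost) to 4 (without control library 1, where Rrm1 and Ubr7 were added), while the share of all genes went from 4.92% to 1.64% and 8.63%, and the count of genes with separate groups from 9 to 13, against 7 with all libraries, since groups of 2 overlap less easily. It was 13 without control library 1 and 11 without control library 3. The share of all genes with separate groups was not counted for these settings, so the counts cannot be set against it. The median of the 54 other replication genes ran from -0.17 to 0.035 and that of the G2/M genes from -0.33 to -0.01. The log2 fold change of 13 genes crossed 0 when a library was left out, with ranges of Casp8ap2 -0.33 to 0.19, Clspn -0.99 to 0.089, Exo1 -0.47 to 0.50, Gmnn -0.56 to 0.049, Nasp -0.23 to 0.087, Pcna -0.47 to 0.028, Pold3 -0.11 to 0.53, Rad51ap1 -0.43 to 0.13, Rrm1 -0.78 to 0.059, Tyms -0.18 to 0.19, Ubr7 -0.88 to 0.13, Uhrf1 -0.53 to 0.30 and Wdr76 -1.06 to 0.66. Uhrf1 was -0.13 in edgeR with TMM, -0.12 in edgeR with the deposited size factors and in DESeq2 and -0.055 in limma-voom, and Exo1 was -0.11, -0.11, -0.11 and -0.0088. Summing genes with their pseudogenes, an alternative chosen after seeing the data like log2 CPM with TMM, turned Tyms to -0.42. The cause of these changes was not tested. No paired analysis was possible because the columns carry no replicate number of the labels. With 3 libraries a group, a difference larger than its standard error was not thereby told from the spread. Of the 32 genes 13 had such a difference, 2 exceeded 2 standard errors, and none passed a false discovery rate of 0.05 in limma-trend.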
